A study of Mus musculus with 16 samples.

Results

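The tumour macrophage genes described here are Cd68, Adgre1, C1qa, C1qb, C1qc, Csf1, Csf1r, Mrc1, Lyz2 and Spp1. They were chosen by symbol, and all 10 were among the 14933 genes listed for the tumours. In RNA from a whole tumour these transcripts come from host cells and, for some of the genes, from the melanoma cells as well. The groups were tumours of the mouse melanoma line B16F10-TDMa carrying sgNlrc5 (n = 4) or sgScramble (n = 4), TDMa cultures with sgNlrc5 (n = 2) or sgScramble (n = 2), and TDM cultures with sgNlrc5 (n = 2) or sgScramble (n = 2). sgNlrc5 is a guide RNA directed at Nlrc5, whose product switches on MHC class I transcription, and sgScramble is its control guide. The melanoma cells of every group carried a transduced guide, the controls included. The labels give no meaning for TDM and TDMa, no host strain, age or injection site, and do not say whether replicates came from separate animals, cultures or clones. The p-values therefore measure the spread between these libraries, which may be technical. Values are normalised counts, that is, reads divided by a size factor of the library. Errors after a mean are SD, and errors after a log2 fold change are standard errors.

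Macrophages are phagocytes that arise from monocytes or from resident precursors and depend on signals through the CSF1 receptor. In melanoma and other tumours they take up debris, secrete complement proteins and matrix-binding cytokines, and can either restrain or help the growth of the tumour. Their products are commonly read as transcripts of lysosomal glycoproteins, adhesion receptors, complement C1q, lysozyme and the mannose receptor.

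All 10 genes rose in sgNlrc5 tumours (adjusted p under 0.05, limma with Benjamini-Hochberg adjustment over 13385 genes). Over all genes tested, 19.7% rose by the same rule, and 39.4% passed in either direction. For 9 of the 10 genes every sgNlrc5 tumour lay above every sgScramble tumour, which held in that direction for 18.1% of the genes tested. The exception was Mrc1. The median log2 fold change of the 10 genes was 1.92, against -0.0104 over all genes tested. Spp1 had the largest change of the 10 and Mrc1 the smallest. In bulk RNA, more cells of a type and more RNA per cell cannot be told apart. Summed over the 10 genes, the normalised count ranged from 18788 to 24739 in sgNlrc5 tumours, against 4953 to 7459 in sgScramble tumours. The plot of each gene by tumour shows these values.

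**Figure D1:**
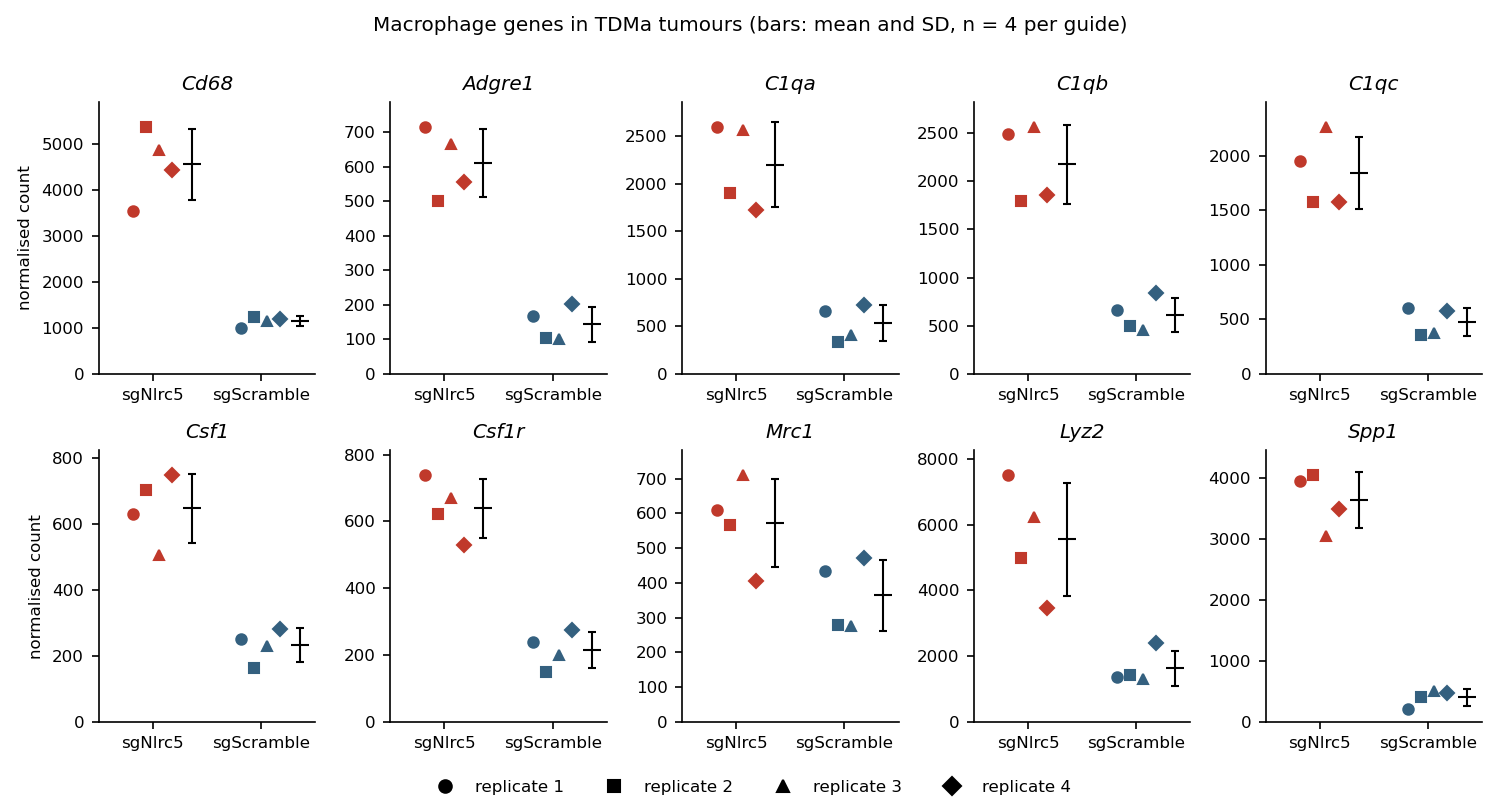
Normalised count (y axis, from 0) of the 10 macrophage genes in each TDMa tumour, with sgNlrc5 left of sgScramble, 1 symbol per replicate and bars for the mean and SD (n = 4 per guide). The guides are separate in 9 panels, and in the Mrc1 panel sgNlrc5 replicate 4, at 407, lies below sgScramble replicates 1 and 4, at 433 and 472.

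Before the results of single genes, the guide and the libraries were checked. Nlrc5 had 4381, 3434, 3655 and 4195 normalised counts in sgNlrc5 tumours, against 837, 257, 559 and 656 in sgScramble tumours (log2 fold change 2.88 ± 0.28, adjusted p = 3.15e-05, limma). Nlrc5 was higher in every sgNlrc5 library than in every sgScramble library of each table, the cultures included. The 16 libraries held 12183889 to 16390886 reads over listed genes. Of 18 other macrophage markers tested in tumours, 16 rose, against 19.7% of all genes tested. This does not show that the 10 transcripts came from macrophages, because 5 of the 18 were also listed in culture. Leukocyte and T cell genes rose too, and the lists were chosen with earlier results of these data known. Of the 10 genes, Cd68, Csf1, Lyz2 and Spp1 were also listed in the cultures, which hold no host cells, so those 4 are not transcripts of macrophages alone here. Adgre1, C1qa, C1qb, C1qc, Csf1r and Mrc1 were listed in neither culture table.

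Cd68 (ENSMUSG00000018774, chromosome 11) encodes macrosialin, a glycoprotein of late endosomes and lysosomes that is abundant in macrophages. It had 3554, 5375, 4875 and 4426 normalised counts in sgNlrc5 tumours, against 991, 1227, 1148 and 1202 in sgScramble tumours. The lowest sgNlrc5 tumour was far above the highest sgScramble tumour. The means were 4558 ± 773 in sgNlrc5 tumours and 1142 ± 106 in sgScramble tumours, a log2 fold change of 1.98 ± 0.12 (adjusted p = 2.88e-06, limma).

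Adgre1 (ENSMUSG00000004730, chromosome 17) encodes F4/80, the adhesion receptor used to identify mouse macrophages. It had 716, 502, 667 and 557 normalised counts in sgNlrc5 tumours, against 167, 103, 101 and 204 in sgScramble tumours. The guides were separate, and sgNlrc5 replicates 1 and 3 were the highest of the 8 tumours. The means were 610 ± 98.4 in sgNlrc5 tumours and 144 ± 50.2 in sgScramble tumours, a log2 fold change of 2.13 ± 0.22 (adjusted p = 4.19e-05, limma).

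C1qa, C1qb and C1qc encode the A, B and C chains of C1q, the recognition protein of the classical complement pathway, which in tissues is made largely by macrophages. The 3 genes are neighbours on chromosome 4, in the order C1qb, C1qc, C1qa with 0 genes between them. C1qa (ENSMUSG00000036887) had 2600.1, 1907, 2569.6 and 1727 normalised counts in sgNlrc5 tumours, against 662, 338, 407 and 723 in sgScramble tumours. C1qb (ENSMUSG00000036905) had 2489, 1792, 2565 and 1854 in sgNlrc5 tumours, against 658, 492, 452 and 841 in sgScramble tumours. C1qc (ENSMUSG00000036896) had 1950.3, 1579, 2267 and 1581 in sgNlrc5 tumours, against 599.8, 358, 373 and 572 in sgScramble tumours. For each chain the guides were separate, and sgNlrc5 replicates 1 and 3 were above sgNlrc5 replicates 2 and 4. Among sgScramble tumours, replicates 1 and 4 were above replicates 2 and 3 for each chain.

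The log2 fold changes of the C1q chains were close to each other: 2.09 ± 0.23 for C1qa, 1.86 ± 0.19 for C1qb and 1.98 ± 0.18 for C1qc (adjusted p = 5.9e-05, 4.07e-05 and 2.53e-05, limma). Within a tumour, the ratio of C1qc to C1qb ranged from 0.784 to 0.884 in sgNlrc5 tumours, against 0.681 to 0.911 in sgScramble tumours. The ratio of C1qa to C1qb ranged from 0.932 to 1.06 in sgNlrc5 tumours, against 0.687 to 1.01 in sgScramble tumours. Both ranges overlapped between the guides, while the levels of each chain did not. Over the 8 tumours, the genes whose log2 deviations were nearest to the mean of the 3 chains were Adgre1, Ly9 and Ctsh, at root mean square differences of 0.12, 0.15 and 0.16. Predicted genes with Gm or Rik names and genes without a symbol were left out of such rankings, here and below. Ly9 is a receptor of the SLAM family on leukocytes, and Ctsh a lysosomal cathepsin. Ly9 averaged 196 normalised counts in sgNlrc5 tumours and 51.8 in sgScramble tumours, and Ctsh 600.1 in sgNlrc5 tumours and 168 in sgScramble tumours.

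Promoters are shown for C1qb and C1qc because these neighbouring genes moved together, and for Mrc1 and Spp1 because they had the smallest and the largest change. Each is the 250 bases before the start site, 5′ to 3′ on the gene's strand, from RefSeq on GRCm38.p6, an earlier build than the GRCm39 named for these libraries. Capitals mark the core recognised by PU.1, a transcription factor of the macrophage lineage encoded by Spi1, searched as GAGGAA or its reverse complement TTCCTC.
C1qb, chr4:136886201-136886450, minus strand: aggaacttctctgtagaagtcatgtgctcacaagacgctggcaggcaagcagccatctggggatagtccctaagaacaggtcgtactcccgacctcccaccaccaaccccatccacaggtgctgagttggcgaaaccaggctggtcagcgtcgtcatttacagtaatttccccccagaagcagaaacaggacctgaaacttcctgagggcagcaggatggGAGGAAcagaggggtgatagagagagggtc
C1qc, chr4:136892915-136893164, minus strand: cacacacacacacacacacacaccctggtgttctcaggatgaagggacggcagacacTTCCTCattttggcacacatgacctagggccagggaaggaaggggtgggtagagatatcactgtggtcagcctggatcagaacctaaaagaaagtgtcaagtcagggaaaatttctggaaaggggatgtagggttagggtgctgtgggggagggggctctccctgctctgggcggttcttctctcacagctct
Mrc1, chr2:14229164-14229413, plus strand: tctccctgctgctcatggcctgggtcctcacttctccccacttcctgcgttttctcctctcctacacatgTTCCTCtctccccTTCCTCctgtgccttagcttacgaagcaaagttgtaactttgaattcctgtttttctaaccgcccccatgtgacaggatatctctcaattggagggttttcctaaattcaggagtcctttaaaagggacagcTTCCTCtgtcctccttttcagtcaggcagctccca
Spp1, chr5:104434861-104435110, plus strand: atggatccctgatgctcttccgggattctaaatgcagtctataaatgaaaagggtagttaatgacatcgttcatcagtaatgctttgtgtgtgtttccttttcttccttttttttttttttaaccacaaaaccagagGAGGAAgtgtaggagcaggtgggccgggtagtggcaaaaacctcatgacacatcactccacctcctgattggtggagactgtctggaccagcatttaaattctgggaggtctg
RefSeq promoters of 7 of the 10 genes, in 8 windows, were searched; Adgre1, C1qa and Csf1r were not searched. The core was in 5 windows, 1 each of C1qb, C1qc, Cd68, Mrc1 and Spp1, and in 23.3% of 32851 promoters of the same length. The match began 30 bases before the start in C1qb, 193 in C1qc and 113 in Spp1, and Mrc1 had matches at 180, 167 and 35. The AP-1 motif TGANTCA, which reads the same on both strands and shares no letters with the PU.1 matches, was in the Cd68 window only of the 8, and in 6.75% of all promoters. A match is a description of the letters and not a binding site. Spi1 itself averaged 299.8 ± 23.2 normalised counts in sgNlrc5 tumours and 109 ± 52.1 in sgScramble tumours, was also listed in culture, and was named here after its values were seen.

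Csf1 (ENSMUSG00000014599, chromosome 3) encodes colony-stimulating factor 1, the growth factor that sustains macrophages, and many cell types other than macrophages secrete it. It had 631, 702, 507 and 748 normalised counts in sgNlrc5 tumours, against 253, 162, 232 and 283 in sgScramble tumours. The guides were separate, and the order of the sgNlrc5 tumours differed from that of C1q, with replicate 4 highest and replicate 3 lowest. The means were 647 ± 105 in sgNlrc5 tumours and 232 ± 51.3 in sgScramble tumours, a log2 fold change of 1.49 ± 0.17 (adjusted p = 9.05e-05, limma).

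Csf1r (ENSMUSG00000024621, chromosome 18) encodes the receptor tyrosine kinase for CSF1, carried mainly by monocytes and macrophages. It had 739, 622, 669 and 529 normalised counts in sgNlrc5 tumours, against 240.2, 151, 199 and 275 in sgScramble tumours. The guides were separate, and as for C1q the highest sgNlrc5 tumours were replicates 1 and 3. The log2 fold change was 1.59 ± 0.17 (adjusted p = 6.09e-05, limma). An exon of Hmgxb3 overlaps Csf1r on the opposite strand, and the sources used here do not state whether reads were counted by strand. The genes nearest to Csf1 in their deviations over the 8 tumours were Otulinl, Tmem106a and Sgpp1, at 0.12, 0.17 and 0.18. These differ from the genes nearest to C1q.

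Mrc1 (ENSMUSG00000026712, chromosome 2) encodes the mannose receptor CD206, an endocytic lectin often read as a marker of alternatively activated macrophages. It had 609, 566, 711 and 407 normalised counts in sgNlrc5 tumours, against 433, 278, 277 and 472 in sgScramble tumours. The guides overlapped, because sgNlrc5 replicate 4 lay below sgScramble replicates 1 and 4. The log2 fold change was 0.66 ± 0.20 (adjusted p = 0.0226, limma). This call depended on single libraries. The adjusted p was 0.0648 without sgScramble replicate 2, 0.0696 without sgScramble replicate 3, 0.0518 without sgNlrc5 replicate 2 and 0.056 without sgNlrc5 replicate 3. Over all its alternatives it ranged from 0.00892 to 0.0696, with a log2 fold change of 0.55 to 0.82.

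Lyz2 (ENSMUSG00000069516, chromosome 10) encodes lysozyme M, a bacteriolytic enzyme of macrophages and neutrophils. It had 7514, 5002, 6241 and 3480.1 normalised counts in sgNlrc5 tumours, against 1364, 1439, 1307 and 2412 in sgScramble tumours. The guides were separate, though sgNlrc5 replicate 4 was low for its group and sgScramble replicate 4 high for its own. The log2 fold change was 1.76 ± 0.23 (adjusted p = 0.000207, limma). Its near-identical paralogue Lyz1 had 121, 37.5, 54.2 and 18.1 in sgNlrc5 tumours, against 19.5, 8.59, 1.99 and 6.17 in sgScramble tumours. The level of each copy is uncertain, because the sources used here do not say how shared reads were counted.

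Spp1 (ENSMUSG00000029304, chromosome 5) encodes osteopontin, a secreted phosphoprotein that binds integrins and CD44 and is made by macrophages and by many tumour cells. It had 3938, 4041, 3045 and 3478 normalised counts in sgNlrc5 tumours, against 211, 406, 511 and 475 in sgScramble tumours. The lowest sgNlrc5 tumour was several times above the highest sgScramble tumour. The means were 3626 ± 458 in sgNlrc5 tumours and 401 ± 133 in sgScramble tumours, a 9.46-fold difference (log2 fold change 3.24 ± 0.23, adjusted p = 7.1e-06, limma). The genes nearest to Spp1 in their deviations over the 8 tumours were Atp2b4, a plasma membrane calcium pump, Sgpp2, a sphingosine-1-phosphate phosphatase, and the long noncoding RNA Fendrr, at 0.27, 0.34 and 0.36. These differences were larger than those of the genes nearest to C1q or Csf1. In sgScramble tumours Atp2b4 had only 9.19 to 24.8 normalised counts, Sgpp2 11.5 to 33.5 and Fendrr 6.89 to 10.6. Counting error limits their deviations there. The predicted gene Gm42793 overlaps Spp1 on the same strand.

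Levels of different genes were compared per kilobase of exon. In sgNlrc5 tumours Lyz2 was highest, at 4224 ± 1310 normalised counts per kb, followed by Cd68 at 3626 ± 615. These levels did not differ beyond their spread. Spp1, at 2200 ± 278, C1qa, at 2116 ± 432, and C1qb, at 1999 ± 376, came next and were within their spread of each other. C1qc was at 955 ± 172 per kb. Adgre1, at 188.5 ± 30.4, stood above Csf1, at 122.6 ± 19.9, and Csf1r, at 110.8 ± 15.2. Mrc1 was lowest, at 89.96 ± 19.8, within the spread of its neighbour Csf1r.

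In sgScramble tumours Lyz2 and Cd68 were again highest per kb, at 1239 ± 398 and 908.5 ± 84.5. C1qb and C1qa came next in place of Spp1, at 561 ± 163 and 512 ± 181, which overlapped. Spp1, at 243 ± 81, was the 6th gene, level with C1qc at 246 ± 66.3. Mrc1, at 57.3 ± 16.1, was the 7th, above but within the spread of Adgre1, at 44.39 ± 15.5, Csf1, at 44.02 ± 9.72, and Csf1r, at 37.5 ± 9.29. Between the guides, then, Spp1 was 3rd in sgNlrc5 tumours and 6th in sgScramble tumours, and Mrc1 was 10th in sgNlrc5 tumours and 7th in sgScramble tumours.

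The tumours of a guide were not in the same order for every gene. Replicates 1 and 3 of sgNlrc5 were each among the 2 highest for 8 of the 10 genes, and replicate 4 for 1 of them, Csf1. Replicate 4 of sgScramble was among the 2 highest for all 10 genes and the highest for 7. Replicate 1 of sgScramble was among the 2 highest for 7 genes but had the lowest Cd68 and Spp1 of its guide. These orders describe tumours and have no test.

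To see how the genes varied relative to each other, each was divided by Adgre1 in the same tumour, with no test. Adgre1 itself had a log2 fold change of 2.13, so a gene that rose less was lower on average relative to it. The share of all genes with ratios separate between the guides was not computed. Mrc1 per Adgre1 was 0.85, 1.13, 1.06 and 0.731 in sgNlrc5 tumours, against 2.6, 2.69, 2.74 and 2.32 in sgScramble tumours. Every sgNlrc5 tumour thus held less Mrc1 per Adgre1 than every sgScramble tumour, by 1.47 on average on the log2 scale (mean log2 difference -1.47). The direction was kept when Cd68 was the denominator, and when 18 or 13 other macrophage markers were, but with the 18 markers the guides overlapped. The mean log2 differences were -1.32, -0.70 and -0.87.

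Spp1 per Adgre1 was 5.5, 8.05, 4.56 and 6.25 in sgNlrc5 tumours, against 1.27, 3.94, 5.04 and 2.33 in sgScramble tumours. These overlapped, because sgScramble replicate 3 exceeded sgNlrc5 replicate 3. Spp1 per Cd68 was 1.11, 0.752, 0.625 and 0.786 in sgNlrc5 tumours, against 0.213, 0.331, 0.445 and 0.395 in sgScramble tumours, with no overlap. Relative to the 18 other macrophage markers, Spp1 was separate between the guides too, at a mean log2 difference of 1.88. The ratio was higher on average in sgNlrc5 tumours with each of the 4 denominators, but Spp1 is also a transcript of the melanoma cells.

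The C1q chains moved nearly in step with Adgre1. The mean log2 differences of their ratios to Adgre1 were -0.04 for C1qa, -0.28 for C1qb and -0.16 for C1qc, and only C1qb was separate between the guides. Csf1r per Adgre1 was 1.03, 1.24, 1.00 and 0.951 in sgNlrc5 tumours, against 1.44, 1.46, 1.96 and 1.35 in sgScramble tumours. It was separate, with a mean log2 difference of -0.55. The differences of C1qb and Csf1r changed sign with the other macrophage markers as denominator, at 0.49 and 0.22 with 18 markers and 0.32 and 0.056 with the 13 listed in no culture. Cd68, Csf1 and Lyz2 per Adgre1 overlapped between the guides.

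**Figure D2:**
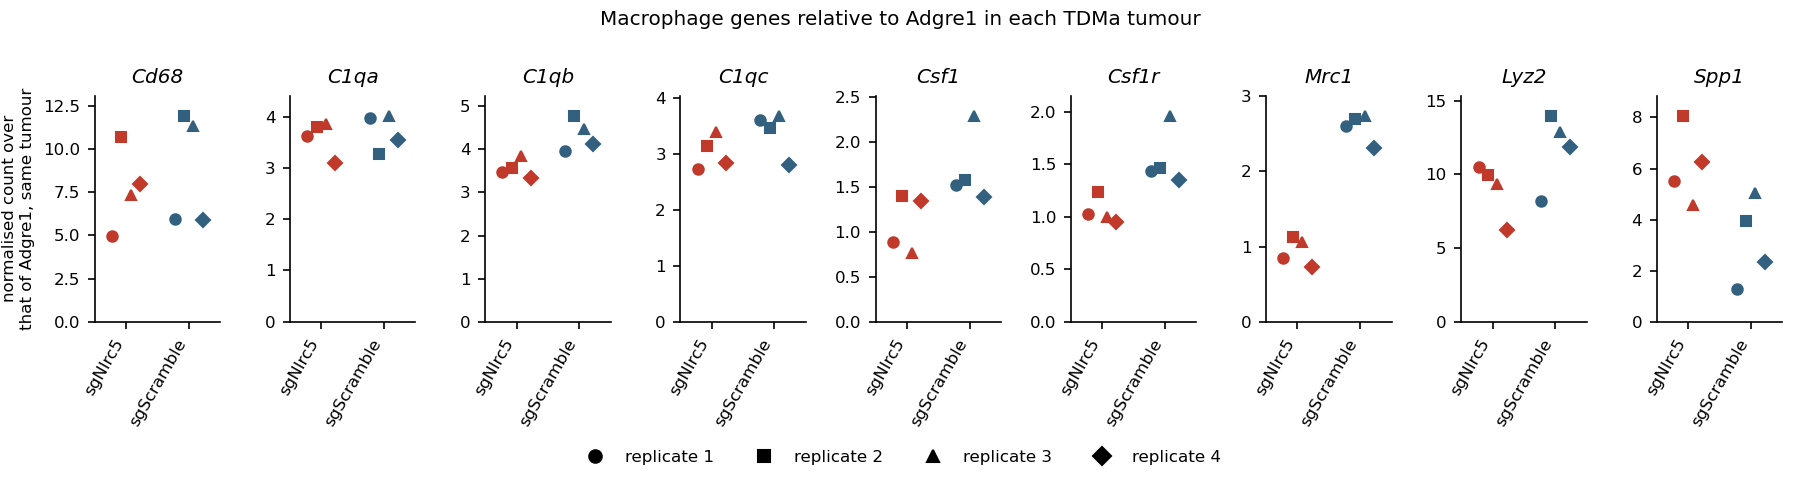
Normalised count of each gene divided by that of Adgre1 in the same TDMa tumour (y axis, from 0), with sgNlrc5 left of sgScramble and 1 symbol per replicate. Mrc1 lies between 0.731 and 1.13 in sgNlrc5 tumours, below all sgScramble tumours, and C1qb and Csf1r are also separate, while the other genes overlap.

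The cultures show the levels in melanoma cells carrying the same guides, without a host. Of the 4 genes listed in TDMa culture, 3 passed the test, against 34.2% of the 12138 genes tested there. Cd68 was higher with sgNlrc5, as were 17.3% of all genes tested, and Csf1 and Lyz2 were lower, as were 16.9%. In TDM culture 0 of the 4 passed (limma), against 0.517% of 11989 genes tested. Before adjustment 1 of the 4, Csf1, was under the threshold in limma, and 0 passed after adjustment with voom on recovered reads. The 3 tables were normalised separately, so levels are set side by side only as values.

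Cd68 had 1023 and 1069 normalised counts in sgNlrc5 TDMa cultures, against 700.3 and 760.0 in sgScramble TDMa cultures, a log2 fold change of 0.52 ± 0.06 (adjusted p = 4.13e-06, limma). In TDM cultures it had 358 and 375 with sgNlrc5, against 369.6 and 407 with sgScramble (log2 fold change -0.08 ± 0.10, adjusted p = 0.861, limma). The TDMa values were separate between the guides and the TDM values overlapped. The share of melanoma cells in the Cd68 of a tumour was not tested.

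Csf1 had 442 and 422 normalised counts in sgNlrc5 TDMa cultures, against 785 and 829 in sgScramble TDMa cultures. It fell, by 0.90 on the log2 scale (log2 fold change -0.90 ± 0.07, adjusted p = 2.28e-08, limma). This was the opposite direction to the tumours. In TDM cultures it had 584 and 631 with sgNlrc5, against 676 and 702 with sgScramble (log2 fold change -0.18 ± 0.08, adjusted p = 0.52, limma).

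Lyz2 was low in culture, with 11.2 and 8.72 normalised counts in sgNlrc5 TDMa cultures, from 10 and 9 reads, against 53.6 and 48.5 in sgScramble TDMa cultures, from 56 and 51 reads. It fell there (log2 fold change -2.25 ± 0.35, adjusted p = 5.5e-05, limma), also opposite to the tumours. In TDM cultures Lyz2 had 42.7 and 24.6 with sgNlrc5, against 41.5 and 35 with sgScramble, which overlapped (log2 fold change -0.22 ± 0.33, adjusted p = 0.884, limma).

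Spp1 had 82.1 and 53.3 normalised counts in sgNlrc5 TDMa cultures, against 106 and 93.2 in sgScramble TDMa cultures. The log2 fold change of -0.58 ± 0.22 did not pass (adjusted p = 0.0525, limma), and it did under 7 of its 12 alternatives, with adjusted p from 0.0114 to 0.405 over all of them. In TDM cultures Spp1 had 40.5 and 32.2 with sgNlrc5, against 25.6 and 38.2 with sgScramble, which overlapped (log2 fold change 0.20 ± 0.32, adjusted p = 0.897, limma). The osteopontin transcript was thus lower in every culture than in every tumour of either guide, as listed in the separately normalised tables.

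**Figure D3:**
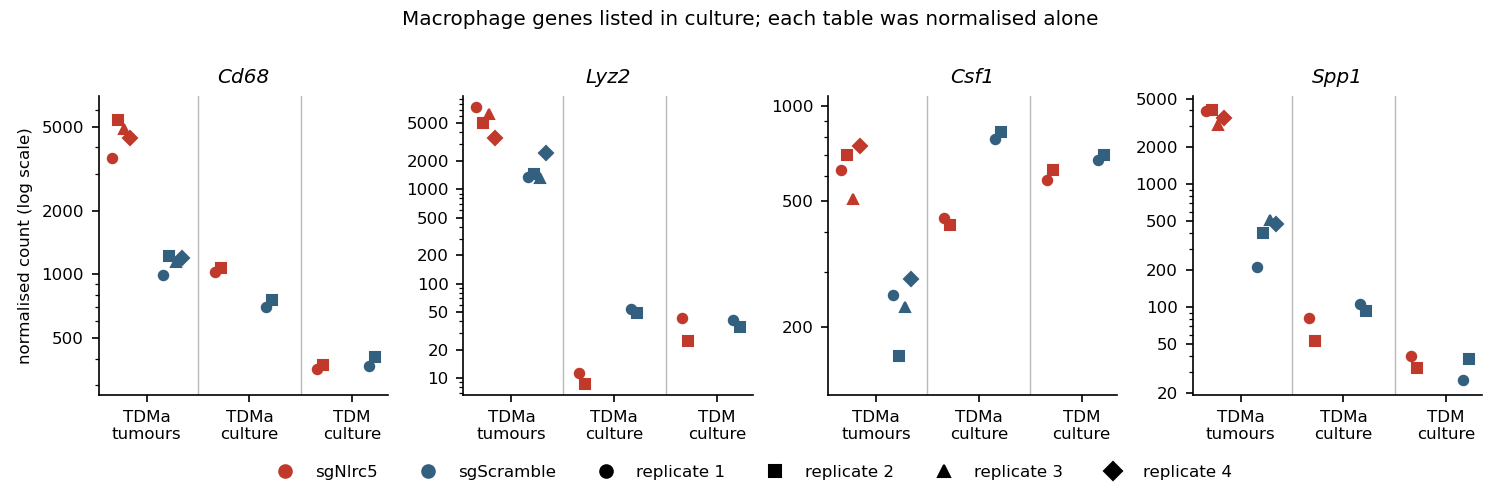
Normalised count (log y axis) of Cd68, Lyz2, Csf1 and Spp1 in TDMa tumours, TDMa cultures and TDM cultures, with sgNlrc5 left of sgScramble in each and 1 symbol per replicate. Csf1 with sgNlrc5 lies above sgScramble in tumours, at 507 to 748 against 162 to 283, and below it in TDMa culture, at 422 and 442 against 785 and 829.

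The guide effect in TDMa tumours was set against that in TDMa culture with an interaction term in limma, which compares the differences within each table. All 4 genes passed in the positive direction, against 17% of 11782 genes tested, and 41.1% passed in either direction. The log2 fold change was larger in tumours by 1.44 ± 0.12 for Cd68 (adjusted p = 5.77e-08), by 2.57 ± 0.20 for Csf1 (adjusted p = 5.69e-08), by 3.82 ± 0.27 for Lyz2 (adjusted p = 1.33e-08) and by 3.66 ± 0.27 for Spp1 (adjusted p = 2.57e-08). For Csf1 and Lyz2 the effects had opposite signs. For Cd68 both were positive and the one in tumours was larger. Tumours hold host cells and the cultures hold none. A different guide effect in the melanoma cells and a different content of host cells therefore cannot be told apart here.

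Between the cultures, the same term gave a difference of TDMa minus TDM effects for 3 of the 4 genes, against 22.7% of 11492 genes tested. It was 0.60 ± 0.12 for Cd68 (adjusted p = 0.000373), -0.72 ± 0.11 for Csf1 (adjusted p = 1.89e-05) and -2.03 ± 0.49 for Lyz2 (adjusted p = 0.00333, limma). For Spp1 it was -0.78 ± 0.40 (adjusted p = 0.167, limma). Both interaction terms use the TDMa cultures, so they are not independent of each other.

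**Figure D4:**
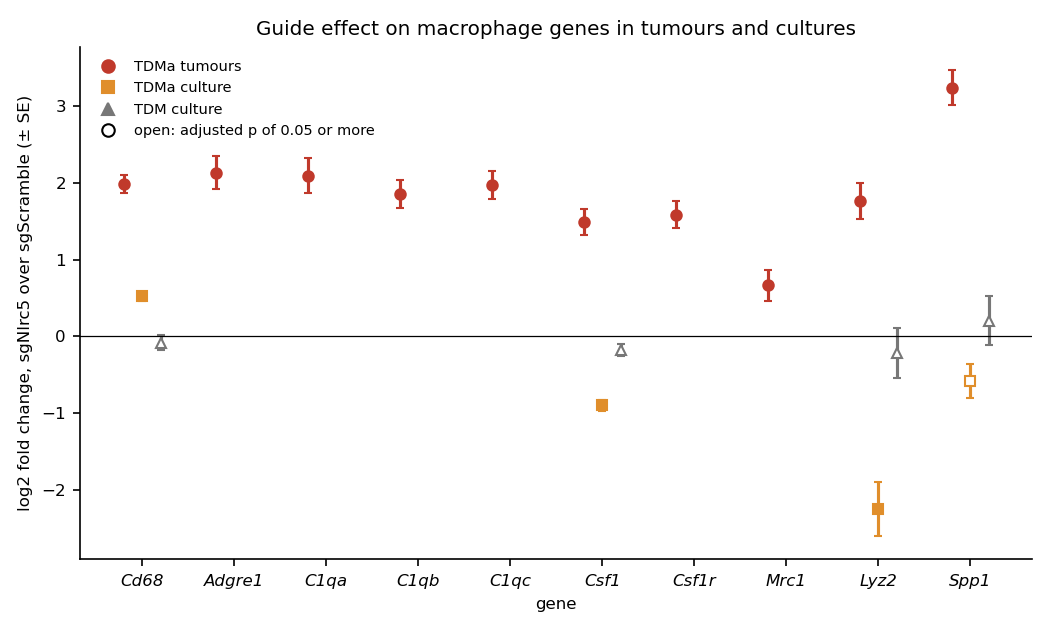
Log2 fold change of sgNlrc5 over sgScramble with its standard error (y axis) for the 10 genes, in TDMa tumours (circles), TDMa culture (squares) and TDM culture (triangles). All 10 tumour values are above 0, while Csf1 at -0.90 and Lyz2 at -2.25 are below 0 in TDMa culture, and open symbols mark adjusted p of 0.05 or more.

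The other genes of the pathways around these 10 were read from lists. Several lists share genes, so their counts are not independent. Tyrobp, Itgam, Trem2, Apoe, Fcgr1, Msr1, Mertk and Cd14 are macrophage markers that other lists hold as well. Csf3r is in the lists of CSF1 receptor genes and neutrophils, and Chil3 in those of alternatively activated macrophages and monocytes. Over all genes tested in tumours, 19.7% rose and 39.4% passed in either direction, which are the shares beside which the counts of each list stand. Among 18 other macrophage markers tested in tumours, 16 rose, 0 fell and 2 did not pass, with a median log2 fold change of 1.57. Mpeg1, the pore-forming perforin-2 of macrophages, averaged 2395 ± 188 normalised counts in sgNlrc5 tumours and 661 ± 224 in sgScramble tumours (log2 fold change 1.91 ± 0.18, adjusted p = 2.9e-05, limma). The lysosomal protease gene Ctss, the signalling adaptor gene Tyrobp and the asparaginyl endopeptidase gene Lgmn rose by 2.14, 1.81 and 0.84. Of the 18 markers, 5 were also listed in culture (Apoe, Fcer1g, Lgmn, Mertk and Sirpa). The summed level of the list was 56449 to 75079 in sgNlrc5 tumours, against 34282 to 38374 in sgScramble tumours. Most of this sum was Apoe, which averaged 43597 in sgNlrc5 tumours and 27958 in sgScramble tumours, and 14100 in sgNlrc5 TDMa cultures and 11851 in sgScramble TDMa cultures. The sum is thus largely a transcript that the melanoma cells also hold.

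Around CSF1 and its receptor, 17 of 18 genes tested rose, 0 fell and 1 did not pass, at a median of 1.47. Beyond Tyrobp these included Inpp5d, a lipid phosphatase that limits signalling from such receptors, at 1.69, Irf8, a transcription factor of the monocyte lineage, at 1.67, and Csf2rb, the shared beta chain of cytokine receptors, at 1.59. The alternative CSF1R ligand gene Il34 was not listed in the tumours but was listed in culture. Of the genes tested, Cebpb, Csf2ra, Lyn, Maf, Plcg2, Ptpn6, Runx1 and Spi1 were also listed in culture. Tyrobp, Inpp5d, Irf8 and Csf2rb were not.

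Of 14 genes for complement components and receptors other than C1q, 13 rose, 0 fell and 1 did not pass, at a median of 1.48. C4b, a component cleaved by the protease complex that C1q activates, averaged 6480 ± 2365 normalised counts in sgNlrc5 tumours and 803 ± 378 in sgScramble tumours (log2 fold change 3.12 ± 0.37, adjusted p = 0.000103, limma). Itgb2 and Itgam, which form complement receptor 3, changed by 1.98 and 1.56, and Cfp, which encodes properdin, by 1.80. Itgb2, C4b and Cfp were also listed in culture. C1q thus rose beside C4b, which acts after it, and beside the chains of a complement receptor.

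Of 14 scavenger, Fc and phagocytic receptor genes, 13 rose, 0 fell and 1 did not pass, at a median of 1.44. Axl, a receptor for apoptotic cells, rose by 2.04, the toll-like receptor gene Tlr2 by 1.52, and the Fc gamma receptor genes Fcgr3 and Fcgr2b by 1.49 and 1.29. Axl and Tlr2 were listed in culture as well.

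Of the 8 genes for receptors of osteopontin, 6 rose, 1 fell and 1 did not pass, at a median of 0.46. The integrin genes Itga9, Itga5 and Itgav rose by 0.85, 0.81 and 0.62, and Itga4 fell by 0.61. These changes were smaller than that of their ligand gene Spp1, and all 8 were listed in culture too.

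Lists of macrophage states were read beside Mrc1. Of 6 alternatively activated macrophage genes tested, 2 rose, 0 fell and 4 did not pass, at a median of 1.09, where 19.7% of all genes tested rose. Tgfb1, a suppressive cytokine, rose by 1.37 and the lectin gene Clec10a by 1.28. Both were also listed in culture, Tgfb1 in the TDMa table and Clec10a in the TDM table. The lectin gene Mgl2, listed in TDM culture as well, had a log2 fold change of 1.07 ± 0.46 (adjusted p = 0.0848, limma) and Chil3, a chitinase-like protein, one of 1.11 ± 0.65 (adjusted p = 0.196, limma). Arg1, the arginase of this state, and Ccl22 did not pass either, at 0.34 ± 0.35 and 0.35 ± 0.41 (adjusted p = 0.475 and 0.531, limma). Of 11 classically activated macrophage genes tested, 9 rose, 0 fell and 2 did not pass, at a median of 1.67. Nos2, the inducible nitric oxide synthase, averaged 443 ± 41.4 normalised counts in sgNlrc5 tumours and 71.6 ± 53.4 in sgScramble tumours (log2 fold change 2.85 ± 0.34, adjusted p = 0.000115, limma). The chemokine genes Ccl5 and Cxcl9 rose by 2.42 and 1.60, and Ccl5 was also listed in culture. Whether the lists differ from each other was not tested.

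Of 11 lipid-associated macrophage genes, 5 rose, 1 fell and 5 did not pass, at a median of 0.62. Trem2, a lipid-sensing receptor, rose by 1.67 and the cathepsin genes Ctsd, Ctsb and Ctsl by 1.19, 0.80 and 0.65. All of these but Trem2 were listed in culture.

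Markers of other cells moved beside the macrophage genes. Over all genes tested in tumours, 19.7% rose. Pan-leukocyte genes rose in 6 of 6, with a summed level of 2743 to 4442 in sgNlrc5 tumours, against 684 to 1588 in sgScramble tumours. T cell genes rose in 11 of 11 at a median of 2.64, with sums of 500.0 to 1612 in sgNlrc5 tumours, against 151 to 214 in sgScramble tumours. NK cell genes rose in 3 of 4 tested, with sums of 175 to 355 in sgNlrc5 tumours, against 25.8 to 141 in sgScramble tumours. The tested NK cell genes were Klrk1, Prf1, Eomes and Gzma, while Ncr1, Klrb1c and Klra8 of that list were not listed in the tumours. Whether these transcripts came from NK cells or T cells was not tested. Lyz2 and complement receptors are also products of neutrophils and monocytes, of whose genes 1 of 2 and 3 of 8 tested rose. The neutrophil sums were 119 to 160.4 in sgNlrc5 tumours, against 33.3 to 96.1 in sgScramble tumours, and the monocyte sums 731 to 1292 in sgNlrc5 tumours, against 268 to 1206 in sgScramble tumours. The neutrophil genes S100a9 and Ly6g were not listed. Of the 11 T cell genes, 2 were also listed in TDM culture and 0 in TDMa culture, the line of these tumours. Of the 8 monocyte genes, 1 was listed in TDMa culture and 0 in TDM culture. Of the 6 pan-leukocyte genes, 1 was listed in both cultures, and 0 of the NK cell and neutrophil genes in either. The part of these cells in the levels of the 10 genes was not tested.

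Of dendritic cell genes, 0 of 4 tested passed in limma, with 1 at an unadjusted p under 0.05. Of the list, 8 genes were listed in the tumours, but Flt3, Xcr1, Clec9a and Cd209a were below the filter and not tested. Batf3, Itgae and Zbtb46 were also listed in culture, so this list does not measure dendritic cells alone. Its sums over the 8 listed genes were 240 to 281 in sgNlrc5 tumours, against 183 to 236 in sgScramble tumours, with no overlap. The 0 of 4 therefore does not show that dendritic cell transcripts were unchanged. In TDMa cultures they were 334 to 344 with sgNlrc5 and 372 to 402 with sgScramble. Of endothelial genes, 0 of 4 passed in limma, and 0 had an unadjusted p under 0.05. Endothelial sums were 4043 to 5296 in sgNlrc5 tumours, against 3987 to 5119 in sgScramble tumours. Nearly all of this was Vwf, at 4609 ± 514 in sgNlrc5 tumours and 4509 ± 460 in sgScramble tumours. Vwf was also listed in culture, at 1282 in sgNlrc5 TDMa cultures and 530.3 in sgScramble TDMa cultures, so the sum does not measure endothelium alone. Fibroblast genes rose in 3 of 6 and fell in 1, skeletal muscle genes rose in 1 of 2, and the 1 B cell gene tested did not pass. Each fibroblast and muscle gene that passed was also listed in culture, so these counts are not of host cells alone. No mast cell or keratinocyte gene of the lists was listed in the tumours. Melanocyte lineage genes, which mark the tumour cells, rose in 2 of 7 and fell in 1, at a median of 0.13. Their sums were 597997 to 953576 in sgNlrc5 tumours, against 565550 to 637913 in sgScramble tumours, which overlapped. Over all genes tested in tumours, 19.7% rose and 39.4% passed in either direction. Whether these small lists differ from those shares was not tested.

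**Figure D5:**
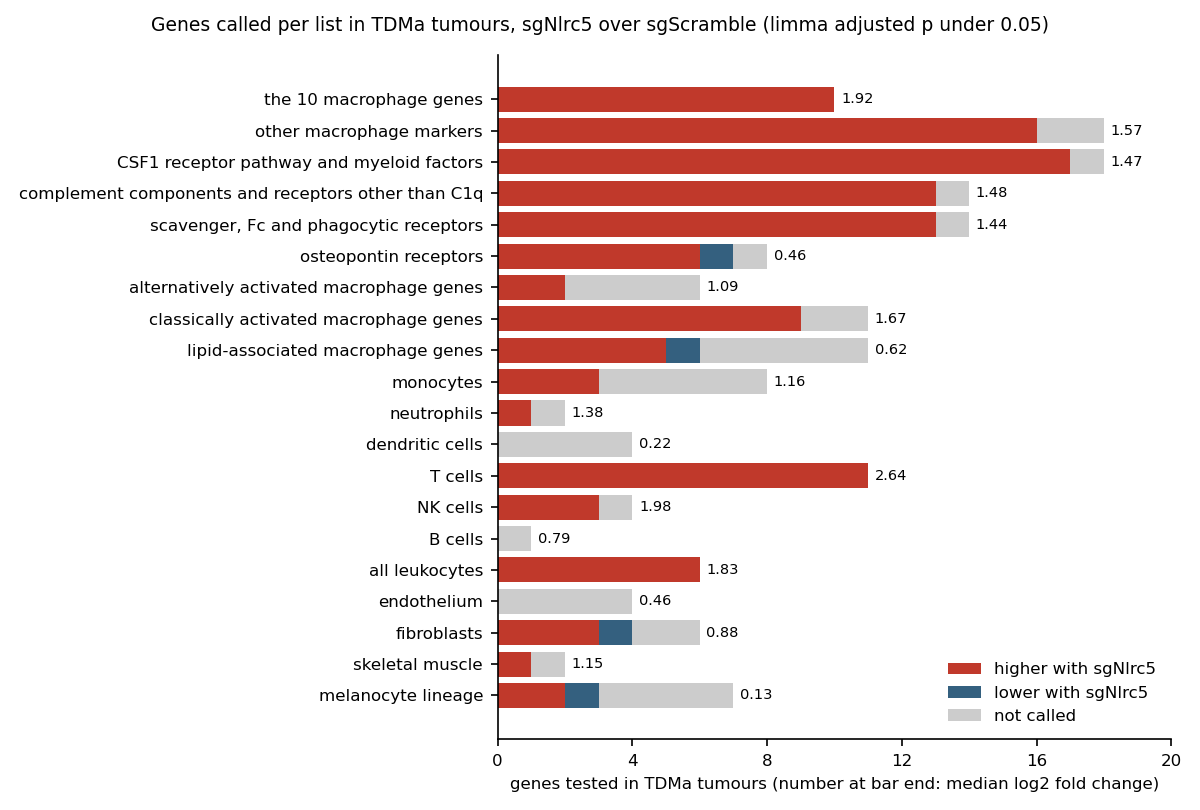
Number of genes tested in TDMa tumours (x axis) for each list, split into genes higher with sgNlrc5, lower with sgNlrc5 and not called (limma adjusted p under 0.05), with the median log2 fold change at the end of each bar. All 10 macrophage genes were higher, as were 16 of 18 other macrophage markers and 11 of 11 T cell genes. Of those tested, 0 of 4 endothelial and 0 of 4 dendritic cell genes were called. Only 4 of the 8 dendritic cell genes listed in tumours passed the filter and were tested. Over all genes tested, 19.7% were higher and 39.4% were called in either direction.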

How the data were processed

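RNA sequencing of mouse melanoma cells in culture and of their tumours gave 3 deposited tables, each normalised alone. Per the file headers and the labels, the authors' values are log2(x + 1), where x is a count over the library's size factor. STAR 2.7.10a, DESeq2 1.36.0 and FastQC 0.12.0 and the builds GRCm39 and mm39 are named in the submitters' processing notes. The sources used here do not give the read counter, its handling of strand, or the rule for listing a gene. Small values were whole multiples of 1 step, to within 0.1 of a read for 100% of those below 2000 multiples. Recovered reads per library, over listed genes only, set the depth, and a gene with few reads has a value limited by counting error.

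After a return to the count scale, genes with a mean of at least 10 were kept, and log2(normalised count + 1) was fitted with limma 3.58.1 in R 4.3.3 with an intensity trend. The two-sided contrast subtracted sgScramble from sgNlrc5, and p was adjusted by Benjamini-Hochberg over the table, with 0.05 as threshold. Fold changes on that scale understate those of low genes. Effects were compared between tables by interaction terms with array weights. The fits were tested on simulated data. Exon lengths came from GENCODE M21, matched by gene identifier.

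The 10 genes and the 21 lists were chosen with earlier results of these data known. Named were the 10 genes, Nlrc5, and up to 4 genes per macrophage or pathway list with the smallest p. Also named were the 3 genes nearest in pattern to C1q, Spp1 and Csf1, leaving out predicted genes and genes without a symbol. A gene that this rule names is not reported here. Arg1 and Ccl22 were added to complete the alternatively activated genes tested. Lists of other cells were given as counts and sums. Alternatives changed the scaling, pseudocount, filter, trend, weights, model of depth, replicate block, denominator and library left out.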

Additional observations from a re-analysis of the deposited data

Results flagged for a closer look

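In a group of 4 tumours, 1 tumour stood far from the other 3 in 6 of 100 groups examined, where chance gives about 1 in 20. The figure in brackets here is the gap to the nearest tumour over the range of the group, both on the log2(normalised count + 1) scale, and is above Dixon's critical value in each case. Lyz2 was 2412 normalised counts in sgScramble replicate 4, against 1307 to 1439 in the other sgScramble tumours (0.843). Ctss was 1823 in the same tumour, against 974 to 988 in the others (0.977). Csf2rb was 292 in sgNlrc5 replicate 1, against 255 to 259 in the other sgNlrc5 tumours (0.905). Ctsl was 9999 in sgNlrc5 replicate 2, against 8128 to 8356 (0.866). Atp2b4 was 9.19 in sgScramble replicate 1, against 21.2 to 24.8 (0.836). Sgpp1 was 472 in sgScramble replicate 2, against 598 to 611 (0.915).

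The guide effect differed between TDMa tumours and TDMa culture, by an interaction term in limma, for Cd68 (1.44), Csf1 (2.57), Lyz2 (3.82) and Spp1 (3.66). It differed between TDMa culture and TDM culture for Cd68 (0.60), Csf1 (-0.72) and Lyz2 (-2.03). Csf1 and Lyz2 were lower with sgNlrc5 in TDMa culture and higher in tumours. Host cells are in the tumours only, so the tumour and culture values are not of the same cells.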

How the results depend on the processing

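In the tumours, the 9 genes other than Mrc1 kept their direction and call under all 16 alternatives. The number of genes called was 5268 and ranged from 4327 to 5412, and from 4327 to 5366 with a library left out. Mrc1 did not pass without the intensity trend (adjusted p = 0.0582, limma) or without sgScramble replicate 2 or 3 or sgNlrc5 replicate 2 or 3, as given above. Chil3 passed without sgScramble replicate 4 (adjusted p = 0.0376, limma) and Mgl2 without sgNlrc5 replicate 4 (adjusted p = 0.048, limma). In TDMa culture 1581 genes were called without the trend, against 4156 with it. In TDM culture, where 62 were called, there were 2 without the trend, 122 with the replicate block and 72 to 130 with a library left out. With a library left out there, the log2 change of Spp1 ranged from -0.078 to 0.48 and that of Lyz2 from -0.61 to 0.16. These reversed without sgScramble replicate 1 for Spp1 and without sgNlrc5 replicate 2 for Lyz2, and were not past the threshold in any case. Between TDMa tumours and TDMa culture, 4844 genes differed, 2799 without array weights and 3140 to 5582 with a library left out (3140 and 3159 without sgScramble culture replicate 1 or 2). Between the cultures 2612 differed, and 1186 without the trend. All calls of the 4 genes in these interactions were kept. Of the 8 genes other than Adgre1 and Cd68, 3 had ratios to Adgre1 separate between the guides, 2 with Cd68 as denominator, 1 with 18 other macrophage markers and 2 with the 13 listed in no culture, the last chosen after seeing the data. No share over all genes was computed for these ratios. The reversed ratio differences were 0.49 and 0.32 for C1qb and 0.22 and 0.056 for Csf1r. The cause of these changes was not tested.

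Replicate numbers did not pair the tumours: the correlations of deviations were -0.207, 0.109, -0.181 and -0.0174 for numbers 1 to 4, and -0.0238 and -0.0152 in TDM and TDMa culture. With the replicate block, 4533 genes were called in tumours, including all 10, and 4433 in TDMa culture, where Spp1 then passed (adjusted p = 0.0237, limma). Spp1 also passed there with equal sums, a pseudocount of 5, no filter, a minimum of 50, voom on recovered reads, or without sgNlrc5 replicate 1. Depth limits Lyz2 in culture, which rests on 9 to 56 reads in TDMa libraries.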
